A study of Homo sapiens with 12 samples.

Results

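Oxidative phosphorylation is carried out by 5 protein complexes of the inner mitochondrial membrane. Complexes I and II feed electrons into the respiratory chain, complexes III and IV pass them to oxygen, and complex V, the ATP synthase, makes ATP from the proton gradient that the others build. All of these but complex II hold subunits from both genomes: a few core subunits are encoded by mitochondrial DNA, transcribed by a polymerase of their own and translated on mitochondrial ribosomes, while the rest are nuclear genes whose products are imported. Doxycycline, a tetracycline, can block mitochondrial translation, and it is also the inducer in cell lines such as these.

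The genes described here are the subunits of the 5 complexes, chosen by symbol (MT-ND, MT-CO, MT-ATP and MT-CYB for the mitochondrial genome; NDUFA, NDUFB, NDUFC, NDUFS and NDUFV, SDHA to SDHD, UQCR, COX4 to COX8 and ATP5 for the nuclear genome), with pseudogenes and antisense or intronic transcripts left out. There were 77 such genes among the 37471 of the table. Of these, 13 were mitochondrially encoded (7 of complex I, 1 of complex III, 3 of complex IV and 2 of complex V) and 64 were nuclear (27, 3, 5, 13 and 16 for complexes I to V). Most genes on chromosomes 3 to 9 are not analysed here, and with them a part of the nuclear subunits, SDHA and UQCRC1 among them. The symbols also took in NDUFC2-KCTD14, a readthrough transcript that shares bases with NDUFC2, and ATP5S and ATP5SL, which are not subunits of the ATP synthase.

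RNA was measured in CAL62, a line established from a human anaplastic thyroid carcinoma, as polyA RNA sequenced in 12 libraries. The 4 groups of 3 libraries were a line in which doxycycline induces mature hsa-miR-139-5p, treated with 1 µg/ml doxycycline for 96 h; the same line untreated; an isogenic line in which doxycycline induces a scrambled, non-targeting control, treated likewise; and that line untreated. All 12 therefore carry an inducible construct, and both treated groups received the antibiotic. The untreated groups are labelled 0 h. Each comparison of doxycycline with untreated thus sets 96 h against 0 h, and antibiotic and time in culture cannot be told apart. Each library also carries a tag in its column name, NE, TR or C, and each tag occurs once in every group. What the tags stand for is not stated in the sources used here, and although the experiment is said to have been repeated, nothing ties the 3 libraries of a group to separate cultures, so p-values reflect only how these libraries vary, which may be technical.

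Values are FPKM (sequenced fragments per gene, corrected for how long the transcript is and how deep the library is), a scale on which levels of different genes can be set side by side. The FPKM of a library summed to between 534216 and 664359 over the genes used here. The absolute depth of the libraries is unknown; the smallest steps between low FPKM values put the deepest library at 2.08 times the depth of the shallowest. HNRNPF, the mRNA that the study followed, was at 98.5 ± 13.7 FPKM in the treated miR-139 line and 205 ± 28.8 FPKM in that line untreated (SD, n = 3 each), against 216 ± 43.3 FPKM in the treated scrambled line and 208 ± 32.6 FPKM in that line untreated. The thyroid and epithelial markers PAX8 (56.0 to 141.7 FPKM), KRT8 and KRT18 were present in every library, whereas the thyroid factor NKX2-1 and the leukocyte genes PTPRC and CD3E were listed at 0 in all 12. Libraries of the same tag deviated together from their group means (18 pairs, r of 0.33 to 0.86), and libraries of different tags did not (36 pairs, r of -0.66 to 0.14). Deviations from a group mean balance out within the group, so the low r of different tags partly follows from the high r of the same tag. The NE libraries stood apart from the others in many genes, so each comparison between groups is given with its values within tags.

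Both genomes were expressed at high levels, with the mitochondrial messages far above the nuclear ones. Over the 12 libraries the 13 mitochondrially encoded genes had mean levels of 1356 FPKM (MT-ND6) to 8381 FPKM (MT-CO1), with a median of 3866 FPKM. The 57 nuclear genes that reached a mean of 1 FPKM, the minimum for the tests, ran from 1.37 FPKM (NDUFC2-KCTD14) to 765 FPKM (ATP5B), with a median of 135.7 FPKM. The lowest mitochondrial gene thus stood above the highest nuclear one.

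Within the mitochondrial genome the 3 cytochrome oxidase genes MT-CO1, MT-CO2 and MT-CO3 were the most abundant (7746 to 8381 FPKM), followed by MT-ATP6 (6079 FPKM), the proton-channel subunit of the ATP synthase, and MT-ND4 (5435 FPKM), a membrane-arm subunit of complex I. MT-ND6, the only one of these genes read from the opposite strand, was lowest. These messages too were measured only as far as they passed polyA selection, so the ranking need not be that of all their RNA. Whether the authors' counting used strand is not stated, so reads from MT-ND6 and from transcripts antisense to it cannot be told apart. MT-ATP8 and MT-ATP6 lie on 1 message and share 46 bases of the annotated genes (chrM:8527-8572, GRCh38, plus strand), where a fragment can be assigned to either. These 46 bases are 46 of the 207 of MT-ATP8, and they are printed because the level of MT-ATP8 cannot be separated from that of MT-ATP6 there:
MT-ATP8 and MT-ATP6 overlap: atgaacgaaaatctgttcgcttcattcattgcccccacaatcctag
MT-ND4L and MT-ND4 likewise share 7 bases. Nuclear copies of mitochondrial genes, 107 symbols in the table, summed to at most 0.0261% of the mitochondrially encoded FPKM in any library.

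Among the nuclear genes, complex IV had the highest median level (278.8 FPKM over 8 tested genes) and complex II the lowest (115.1 FPKM over 3). The leading gene of each complex was NDUFA11 (241 FPKM), an accessory subunit of complex I; SDHC (115.8 FPKM), a membrane anchor of succinate dehydrogenase; UQCRH (417 FPKM), the hinge subunit of complex III; COX8A (620 FPKM), a small subunit of complex IV; and ATP5B (765 FPKM), the catalytic beta subunit of the ATP synthase. Of the 7 nuclear genes under a mean of 1 FPKM, COX8C, COX4I2, COX6A2 and COX6B2 have a common form that was abundant here. COX7A2 and NDUFA4, the related genes beside COX7A1 and NDUFA4L2, were not among the genes analysed. COX8C was listed at 0 in all 12 libraries, against a mean of 620 FPKM for COX8A. COX4I2 averaged 0.0141 FPKM and COX4I1 548 FPKM. COX6A2, the heart and muscle form, averaged 0.896 FPKM, against 506 FPKM for COX6A1. COX6B2, COX7A1, NDUFA4L2 and ATP5L2 were between 0.0489 and 0.940 FPKM, beside a mean of 301 FPKM for COX6B1. Of the muscle markers, MYH7, ACTA1 and CKM were at or near 0, with DES at 0.788 to 2.13 FPKM.

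**Figure D1:**
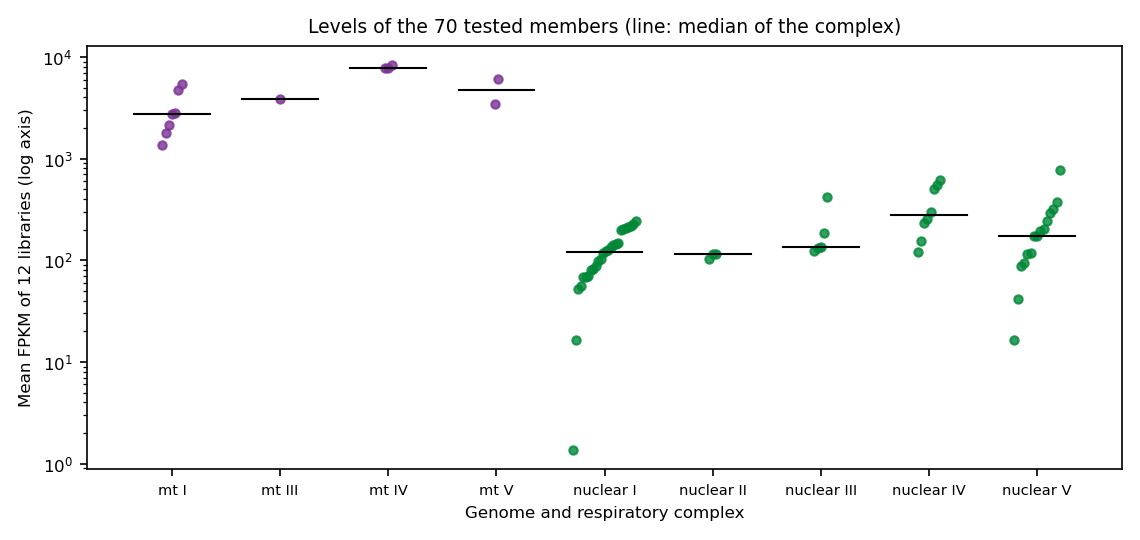
Mean FPKM over the 12 libraries (log axis) of the 70 tested genes, by genome (mt, mitochondrial) and complex; each point is a gene and each line the median of its complex. All 13 mitochondrially encoded genes lie at 1356 FPKM or above, and all 57 nuclear genes at 765 FPKM or below.

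The tag of a library went with the largest differences in these genes. Mitochondrially encoded genes took 5.45% to 8.57% of the summed FPKM in the 4 NE libraries, 11.5% to 12.3% in the TR libraries and 10.7% to 12.1% in the C libraries. Nuclear subunits took 1.88% to 2.22% in NE, 1.64% to 1.77% in TR and 1.62% to 1.67% in C. The NE libraries were thus the lowest for the first set and the highest for the second, without overlap in either. In bulk RNA, fewer cells of a type and less RNA per cell cannot be told apart. Summed mitochondrial over summed nuclear FPKM averaged 3.53 ± 0.864 in NE, 6.91 ± 0.36 in TR and 6.98 ± 0.38 in C (SD, n = 4 each). In NE the ratio was 3.44 in the treated and 4.55 in the untreated miR-139 line, and 2.45 in the treated and 3.68 in the untreated scrambled line. Outside NE it stayed between 6.44 and 7.33.

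**Figure D2:**
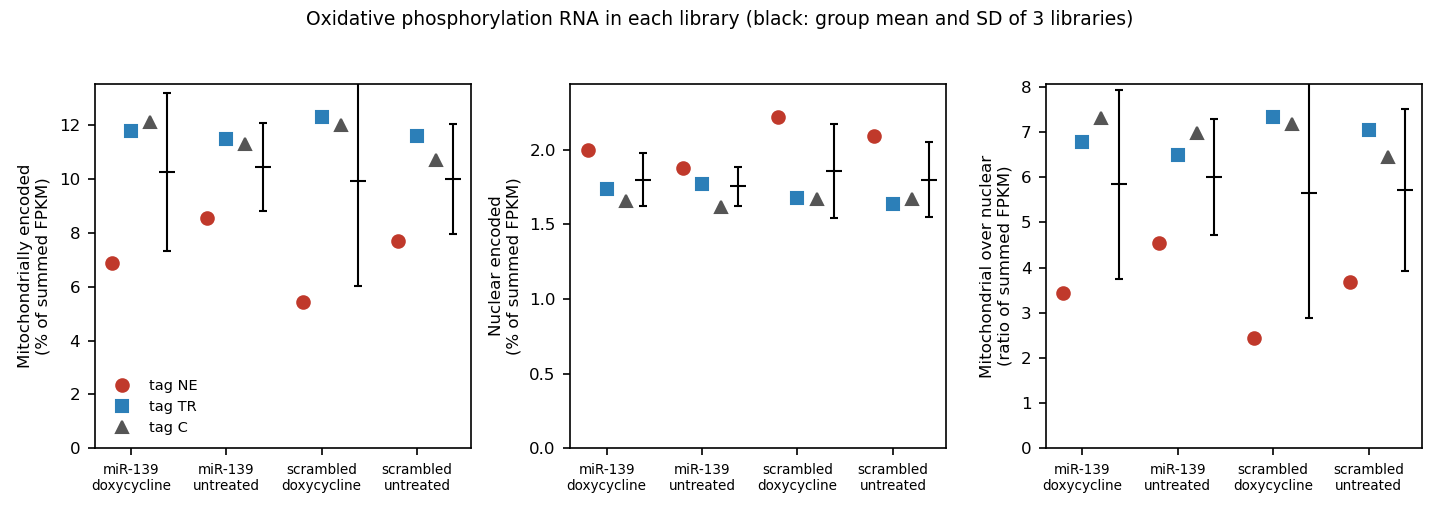
Share of the summed FPKM taken by mitochondrially encoded genes (left) and by nuclear subunits (middle), and the ratio of the sums (right), in each of the 12 libraries by group; symbols give the tag and black bars the group mean and SD (n = 3). The 4 NE libraries have the lowest ratios (2.45 to 4.55), and within NE each treated library lies below its untreated one.

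The tag contrasts were tested with limma on log2(FPKM + 1) over 9778 genes, in a fit with group and tag, with Benjamini-Hochberg adjustment over all of them; a change in this scale is a log2 difference, and a gene counts as changed at an adjusted p under 0.05. Against C, 12 of the 13 mitochondrially encoded genes were lower in NE and none was higher, with a median log2 change of -0.64. Of the 57 nuclear genes 44 were higher and 2 lower, with a median of 0.39. Over all genes tested 48.9% changed in this contrast (26.2% higher, 22.7% lower) and the median was 0.02. Against TR, 12 mitochondrially encoded genes were lower (median -0.67), and 34 nuclear genes were higher and 1 lower (median 0.34), where 45.4% of all genes changed (24.7% higher, 20.7% lower). Both contrasts share the NE libraries. Within the 4 groups (treated and untreated miR-139 line, treated and untreated scrambled line) the mitochondrial median of NE minus C was -0.85, -0.32, -1.05 and -0.36, and the nuclear median 0.32, 0.27, 0.59 and 0.40. For NE minus TR the mitochondrial medians were -0.88, -0.53, -1.20 and -0.41, and the nuclear ones 0.12, -0.01, 0.63 and 0.54. The direction therefore held in each group for the mitochondrial genes, and against TR the nuclear shift lay mainly in the scrambled line; that difference between the lines was not tested. Without the TR library of the treated scrambled line 31 members passed against TR, rather than 47, where 1871 of all genes were higher and 1566 lower. In the miR-139 line alone 24 members did, where 1671 of all genes were higher and 1481 lower.

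How large these changes are depends on the scale, since FPKM is relative to the library. When the genes outside the mitochondrial genome were brought to the same sum in each library, the median of all genes moved to -0.15 against C and -0.11 against TR, and of the genes called the higher share was 28.9% against C (53.6% as deposited) and 32.8% against TR (54.5%). On that scale 1344 of all 9778 genes were higher and 3311 lower against C, and 1355 higher and 2779 lower against TR. Beside this, 13 mitochondrially encoded genes were lower in both contrasts. The nuclear genes called were 28 higher and 3 lower against C and 22 higher and 1 lower against TR. Relative to the median of all genes, the nuclear median was 0.35 above it against C on that scale and 0.38 above it as deposited. With the upper quartile set equal, the higher share was 40.3% against C and 39.9% against TR. Of all genes 1927 were then higher and 2853 lower against C, and 1780 higher and 2685 lower against TR. Of the nuclear genes 39 were higher and 3 lower against C, and 23 higher and 1 lower against TR.

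**Figure D3:**
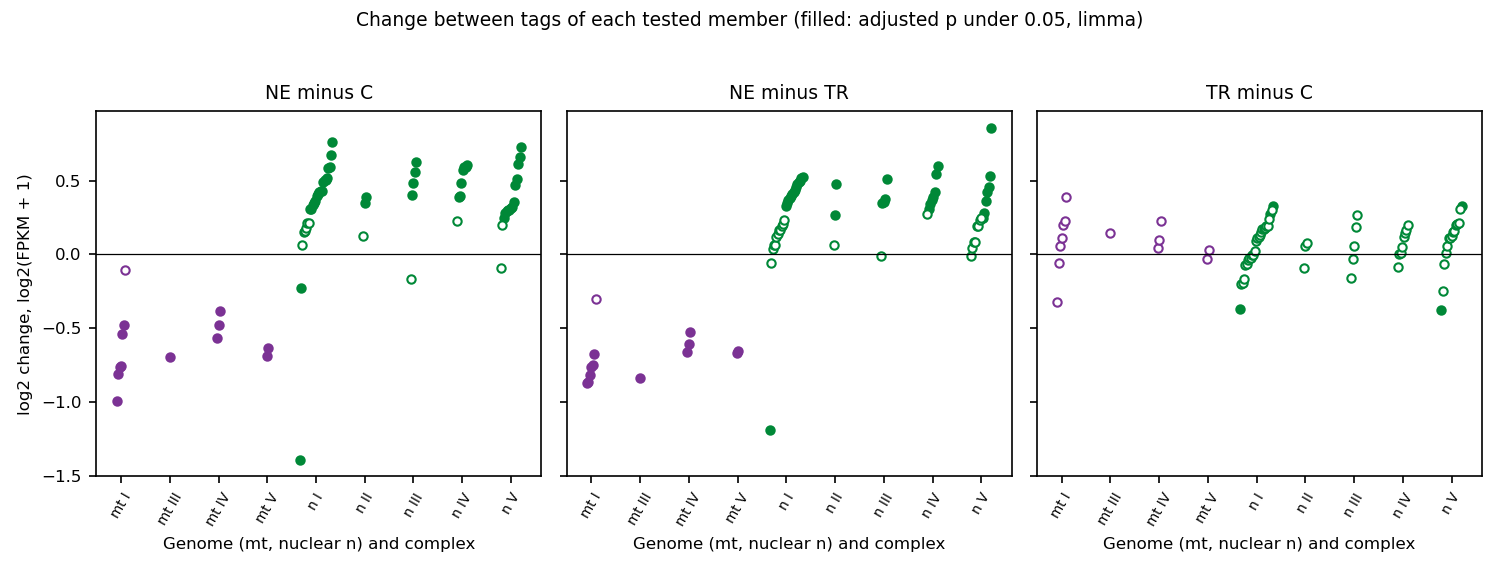
log2 change on the log2(FPKM + 1) scale of each of the 70 tested genes between tags (NE minus C, NE minus TR, TR minus C), by genome (mt, mitochondrial; n, nuclear) and complex; filled points have an adjusted p under 0.05 (limma, 4 libraries per tag). Mitochondrial genes lie below 0 and most nuclear genes above 0 in both NE contrasts, while TR minus C holds 5 filled points.

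The mitochondrially encoded subunits of complex I included the largest falls. MT-ND2, a membrane-arm subunit, had 1322, 1719, 1096 and 1559 FPKM in the NE libraries (treated and untreated miR-139 line, then treated and untreated scrambled line, the order used throughout for values within a tag), against 2522, 2712, 2547 and 2498 FPKM in TR and 2547, 2277, 2371 and 2312 FPKM in C. All 4 NE values lay below all 8 others. Its log2 change was -0.87 ± 0.13 against TR and -0.76 ± 0.13 against C (SE; limma adjusted p of 0.000133 and 0.000362). MT-ND4L had the largest drop against C, -1.0 ± 0.16 (SE; limma adjusted p = 0.000263), with 1793, 2413, 1400 and 1904 FPKM in NE and 3657, 3542, 4011 and 3516 FPKM in C. MT-ND1, MT-ND4, MT-ND5 and MT-ND6 were lower in NE in both contrasts, by log2 changes of -0.48 to -0.87, again with no overlap between NE and the other tags.

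MT-ND3 stood out from the rest. This small complex I subunit had 2528, 2088, 2867 and 2387 FPKM in NE, 3374, 3273, 2973 and 2561 FPKM in TR and 2707, 2513, 2849 and 2511 FPKM in C. The tags overlapped, and the log2 change was -0.30 ± 0.12 against TR and -0.11 ± 0.12 against C (SE; limma adjusted p of 0.0555 and 0.485). Its level relative to MT-CO1 was 0.65 in the treated scrambled and 0.448 in the treated miR-139 NE library, and between 0.273 and 0.336 in the other 10.

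In complexes III, IV and V the mitochondrial genes moved in the same direction as in complex I. MT-CYB, the heme-bearing cytochrome b, had 2533, 3033, 2108 and 2920 FPKM in NE, 4750, 4745, 4954 and 4342 FPKM in TR and 4610, 4000, 4359 and 4034 FPKM in C. MT-CO1, which holds the site where oxygen is reduced, had 5637, 7655, 4413 and 7520 FPKM in NE, 10049, 9798, 10165 and 8920 FPKM in TR and 9384, 9039, 9371 and 8628 FPKM in C. For both genes every NE library was below every other library, and the 2 treated NE libraries were the lowest. The log2 change of MT-CYB was -0.84 ± 0.14 against TR and -0.69 ± 0.14 against C (SE; limma adjusted p of 0.000327 and 0.00117). That of MT-CO1 was -0.66 ± 0.18 against TR and -0.56 ± 0.18 against C (SE; limma adjusted p of 0.00782 and 0.0172). MT-CO2, MT-CO3, MT-ATP6 and MT-ATP8 had log2 changes of -0.38 to -0.69 in the 2 contrasts, all with an adjusted p under 0.05.

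Of the 13 mitochondrially encoded genes, 12 (all but MT-ND3) had all 4 NE libraries below all 8 C and TR libraries, a pattern seen in 10.0% of all genes tested. The summed FPKM of the mitochondrial ribosomal RNAs ran from 3444 to 4228 in NE, 4530 to 5171 in TR and 3509 to 4304 in C. As for those 12 messages, all NE values lay below all TR values. In contrast to those messages, NE and C overlapped. The rRNAs were measured only as far as they passed polyA selection.

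Nuclear subunits moved the other way in NE, in every complex. In complex I, 18 of 26 tested genes were higher and 2 lower against C, and 14 were higher and 1 lower against TR. NDUFA6, an accessory subunit, had 118, 110, 146 and 133 FPKM in NE, 88.8, 96.2, 87.8 and 78.1 FPKM in TR and 86.3, 74.99, 79.9 and 74.0 FPKM in C. All NE values lay above all others, and the log2 change was 0.52 ± 0.09 against TR and 0.67 ± 0.09 against C (SE; limma adjusted p of 0.000659 and 0.000121). NDUFB1, another accessory subunit, had the largest rise of the complex against C, 0.76 ± 0.15, and NDUFS8, a core iron-sulfur subunit, the largest against TR, 0.52 ± 0.11 (SE; limma adjusted p of 0.000874 and 0.00183). NDUFA11, the most abundant, was at 293 ± 59.4 FPKM in NE, 224 ± 20.1 FPKM in TR and 206 ± 6.51 FPKM in C (SD, n = 4 each), higher than both.

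Complex I also held exceptions. NDUFS1, the largest iron-sulfur subunit of the electron-input arm, had 69.0, 79.9, 63.8 and 61.3 FPKM in NE, 57.6, 61.2, 65.8 and 63.0 FPKM in TR and 74.9, 78.2, 86.3 and 80.9 FPKM in C. It was lower in NE than in C (-0.23 ± 0.09, SE; limma adjusted p = 0.0423) and lower in TR than in C (-0.37 ± 0.09; adjusted p = 0.0119), with overlap between NE and both others. NDUFC2-KCTD14 had the most negative change, -1.39 ± 0.29 against C and -1.19 ± 0.29 against TR (SE; limma adjusted p of 0.00162 and 0.00459), at levels of 0.000254 to 0.567 FPKM in NE and 0.000224 to 3.13 FPKM in the other tags. NDUFC2 itself, with which it shares bases, had 280 ± 40.3 FPKM in NE, 213 ± 31.0 FPKM in TR and 185 ± 6.73 FPKM in C (SD, n = 4 each) and was higher in NE than in both, and how fragments were split between the pair is not stated.

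Complex II, the only one with no mitochondrially encoded subunit, rose in 2 of its 3 genes. SDHB, its iron-sulfur subunit, had 117, 109, 144 and 128 FPKM in NE, 92.9, 94.9, 87.9 and 78.9 FPKM in TR and 90.4, 93.0, 96.0 and 97.1 FPKM in C. NE lay above both other tags throughout, with log2 changes of 0.48 ± 0.09 against TR and 0.39 ± 0.09 against C (SE; limma adjusted p of 0.000842 and 0.00318). SDHC was also higher against both tags, whereas SDHD, the other membrane anchor, had log2 changes of 0.07 ± 0.08 against TR and 0.12 ± 0.08 against C that did not pass the test (limma adjusted p of 0.527 and 0.224).

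In complex III, 4 of 5 nuclear genes were higher in NE in both contrasts. UQCRH had 463, 438, 579 and 495 FPKM in NE, 410, 421, 373 and 343 FPKM in TR and 372, 363, 380 and 368 FPKM in C, with no overlap of NE and the others. UQCRFS1, the Rieske iron-sulfur protein, rose by 0.51 ± 0.09 against TR and UQCR11, a small subunit, by 0.63 ± 0.13 against C (SE; limma adjusted p of 0.000664 and 0.00122). UQCRC2, a large core subunit, was the exception, with log2 changes of -0.01 ± 0.09 against TR and -0.17 ± 0.09 against C (limma adjusted p of 0.949 and 0.131).

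In complex IV, all 8 tested nuclear genes had positive changes in both contrasts, and 7 passed the test in each. COX8A had 717, 618, 1030 and 882 FPKM in NE, 503, 561, 527 and 514 FPKM in TR and 523, 483, 537 and 547 FPKM in C. The lowest NE library exceeded the highest of the other 8, and the log2 change was 0.60 ± 0.12 against TR and 0.61 ± 0.12 against C (SE; limma adjusted p of 0.00104 and 0.000891). COX5A, a matrix-side subunit, rose by 0.54 ± 0.11 against TR and 0.60 ± 0.11 against C (SE; limma adjusted p of 0.00115 and 0.000598). COX4I1 did not pass against TR (0.28 ± 0.12, adjusted p = 0.0809) and COX7B did not pass against C (0.22 ± 0.09, adjusted p = 0.0592).

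In complex V, 13 of 15 tested genes were higher against C and 7 against TR, and none was lower. ATP5G1, 1 of 3 genes that encode the same mature c subunit of the membrane ring, had 151, 131, 189 and 156 FPKM in NE, 93.2, 86.3, 86.8 and 75.5 FPKM in TR and 121, 89.7, 108 and 88.9 FPKM in C. NE lay above both, and its log2 change of 0.86 ± 0.10 against TR was the largest of the 57 nuclear genes in that contrast (SE; limma adjusted p = 2.17e-05), beside 0.61 ± 0.10 against C (adjusted p = 0.000239). Of the other c subunit genes, ATP5G3 was higher in NE against both tags (0.46 ± 0.12 and 0.66 ± 0.12), and ATP5G2 passed against C (0.30 ± 0.12, limma adjusted p = 0.0463) but not against TR (0.25 ± 0.12, adjusted p = 0.104). ATP5B had 908, 801, 1153 and 961 FPKM in NE, 658, 678, 662 and 624 FPKM in TR and 667, 666, 709 and 695 FPKM in C. ATP5L, the g subunit, rose by 0.73 ± 0.11 against C (SE; limma adjusted p = 0.000165).

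**Figure D4:**
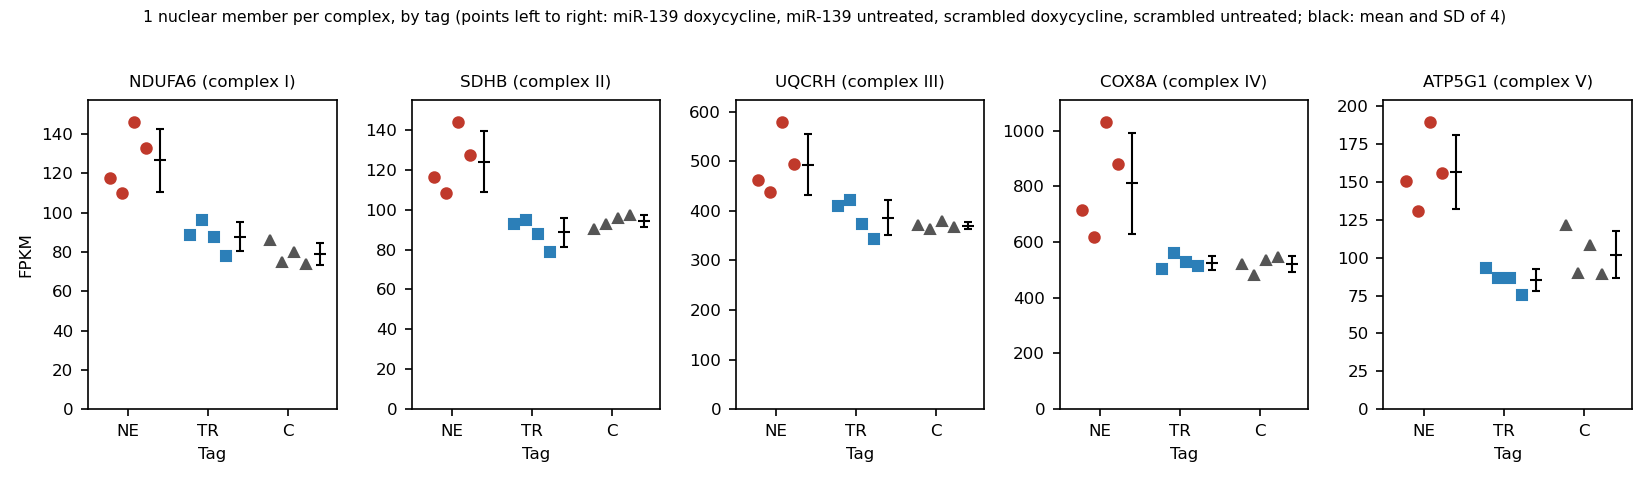
FPKM of 1 nuclear gene from each complex in the 12 libraries by tag (NE, TR, C); points within a tag are the 4 groups and black bars the mean and SD (n = 4). For each of the 5 genes the lowest NE library lies above the highest TR and C library, and the treated scrambled NE library is the highest. All 5 are from the 15 of 57 tested nuclear genes without such overlap, so they do not stand for the rest.

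Of the 57 nuclear genes, 15 had all 4 NE libraries above all 8 others, where 14% of all genes tested did, and none had them below. Between TR and C, in the fit over all 4 groups, none of the 13 mitochondrially encoded and 5 of the 57 nuclear genes passed. Over all genes 16.6% did (8.49% higher, 8.16% lower). That fit averages over groups that differed: the nuclear median of TR minus C was 0.18 and 0.26 in the treated and untreated miR-139 line. In the treated and untreated scrambled line it was 0.03 and -0.10. Positive were 50, 49, 30 and 15 of the 57, in the same order. NDUFB10, NDUFB3 and ATP5E, the epsilon subunit, were higher in TR (log2 changes of 0.33, 0.28 and 0.33), and NDUFS1 and ATP5S were lower (-0.37 and -0.37; limma adjusted p of all 5 between 0.0119 and 0.0483). Leaving out 1 library took this count to between 0 and 7; it was 0 without the treated TR library of the miR-139 line. In the miR-139 line alone 27 members passed between TR and C, of which 22 nuclear genes were higher and 2 lower in TR. Over all genes of that fit 1015 were higher and 903 lower.

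Transcript length was set beside the tag contrasts. The nuclear genes described here are short, with a median transcript of 703 bases against 1658 for all tested genes with a length. The median change of NE against C over all genes was 0.07 for transcripts under 600 bases, 0.13 for 600 to 1000, 0.11 for 1000 to 1500, 0.04 for 1500 to 2500 and -0.09 for 2500 or more, so it was not highest in the shortest. The nuclear subunits in these classes had medians of 0.46 (18 genes), 0.39 (26), 0.39 (6), 0.20 (5) and 0.40 (2), above all genes of their class in each. The part of length in the result was not tested.

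The genes whose levels over the 12 libraries were most like the mean of the mitochondrially encoded genes, outside the set, were SRSF5, AHSA2, ATRX, ZNF627 and SRSF6 (r of 0.968 to 0.978 on the log scale). SRSF5, a splicing factor, averaged 199.5 FPKM in NE, 345.8 FPKM in TR and 342.3 FPKM in C. The genes most like the mean of the nuclear subunits were SNRPD2, EIF3K, FAU, NME1-NME2 and DGUOK (r of 0.990 to 0.994). SNRPD2, a core protein of the spliceosomal snRNPs, averaged 660.6 FPKM in NE, 472.3 FPKM in TR and 446.4 FPKM in C. The members' own median r was 0.958 for the mitochondrial set, where MT-ND3 was lowest at 0.444, and 0.938 for the nuclear set, where NDUFC2-KCTD14 was lowest at -0.651. These correlations describe 12 libraries that share tags and groups.

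Upstream sequence was looked at because the nuclear subunits moved together. RefSeq promoter windows (GRCh38.p14, 250 bases before to 50 after the gene's start) were found for 49 of the 57 tested nuclear genes. Searched on both strands, the ETS motif CCGGAAG was in 34.7% of them against 10.7% of all 27305 windows and 21.0% of the 6750 windows of tested genes, and the YY1 motif ATGGCGG was in 32.7% against 5.72% and 11.6%. The NRF1 motif, searched as a palindrome of 10 letters, was in 4.08% against 1.36% and 2.31%. No 2 of these matches overlapped within a member's window. The mean of the 2 NE changes had a median of 0.38 in the 17 genes with the ETS letters and 0.31 in the 32 without, and of 0.42 in the 16 genes with the YY1 letters and 0.30 in the 33 without. With NRF1 it went the other way, 0.17 in 2 genes with the motif and 0.38 in the 47 without. A match is not a binding site, and factor binding was not measured. Since the windows run 50 bases past the start, a match can lie in transcribed sequence, and such matches were not counted apart.

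The windows of 3 genes that were higher in NE and of NDUFS1, which was not, are given 5′ to 3′ on the gene's strand, with matches to the ETS or YY1 letters, on either strand, in capitals.
NDUFA6 (chr22:42090723-42091022, minus strand; YY1): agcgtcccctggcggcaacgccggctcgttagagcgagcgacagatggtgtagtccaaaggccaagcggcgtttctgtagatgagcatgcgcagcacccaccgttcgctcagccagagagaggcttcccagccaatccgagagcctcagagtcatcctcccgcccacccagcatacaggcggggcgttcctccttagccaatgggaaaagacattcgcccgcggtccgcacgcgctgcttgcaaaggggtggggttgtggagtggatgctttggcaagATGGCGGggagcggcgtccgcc
COX8A (chr11:63974370-63974669, plus strand; ETS): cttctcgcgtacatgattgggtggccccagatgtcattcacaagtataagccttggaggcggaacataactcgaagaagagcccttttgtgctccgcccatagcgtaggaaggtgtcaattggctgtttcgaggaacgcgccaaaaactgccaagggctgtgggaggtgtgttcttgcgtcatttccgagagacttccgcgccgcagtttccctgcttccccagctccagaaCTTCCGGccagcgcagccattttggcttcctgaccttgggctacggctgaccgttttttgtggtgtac
ATP5L (chr11:118401356-118401655, plus strand; ETS): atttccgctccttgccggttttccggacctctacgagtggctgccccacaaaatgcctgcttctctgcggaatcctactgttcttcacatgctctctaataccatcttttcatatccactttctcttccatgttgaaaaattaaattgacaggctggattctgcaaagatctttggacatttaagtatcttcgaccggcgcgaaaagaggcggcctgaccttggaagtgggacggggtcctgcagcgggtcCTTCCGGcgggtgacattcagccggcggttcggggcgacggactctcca
NDUFS1 (chr2:206159395-206159694, minus strand; ETS and YY1): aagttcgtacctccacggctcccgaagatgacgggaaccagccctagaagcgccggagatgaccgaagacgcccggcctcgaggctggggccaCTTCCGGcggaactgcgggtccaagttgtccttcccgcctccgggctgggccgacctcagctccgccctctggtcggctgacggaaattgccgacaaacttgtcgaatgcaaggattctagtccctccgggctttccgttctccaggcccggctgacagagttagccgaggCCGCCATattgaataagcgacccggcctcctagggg
NDUFS1 thus held both sets of letters in its window while its level was lower in NE than in C. The 3 higher genes printed were taken from those with a match. ATP5G1 and NDUFB1, with the largest mean NE changes among the genes with a window (0.73 and 0.61), held none of the motifs searched.

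Other genes of the pathway, those that the symbols did not take in, were followed in 5 lists; over all genes 26.2% were higher and 22.7% lower in NE against C, and 24.7% higher and 20.7% lower against TR. Of 34 tested assembly factors and electron carriers, 23 were higher and 3 lower in NE against C, and 17 higher and 3 lower against TR. COA3, an assembly factor of complex IV, averaged 113 ± 17.7 FPKM in NE and 58.9 ± 5.56 FPKM in C (SD, n = 4 each), the largest rise (0.92 ± 0.11, SE; limma adjusted p = 5.5e-05). LRPPRC, which binds and stabilises mitochondrial mRNAs, was the lowest in both contrasts, at 53.2 ± 10.2 FPKM in NE, 69.3 ± 1.54 FPKM in TR and 87.3 ± 5.05 FPKM in C (SD, n = 4 each), with changes of -0.39 ± 0.10 against TR and -0.72 ± 0.10 against C (SE; limma adjusted p of 0.00485 and 9e-05).

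Of 24 tested genes for the expression of mitochondrial DNA, 8 were higher (33.3%) and 5 lower (20.8%) against C, and 7 higher (29.2%) and 4 lower (16.7%) against TR, shares near those over all genes. POLRMT, the mitochondrial RNA polymerase, averaged 38.3 ± 7.19 FPKM in NE and 23.2 ± 1.60 FPKM in TR (0.68 ± 0.10, SE; limma adjusted p = 0.000102). HSD17B10, a subunit of mitochondrial RNase P, rose by 0.69 ± 0.10 against C, and MTIF2, a mitochondrial translation initiation factor, was lower by -0.55 ± 0.10 (SE; limma adjusted p of 0.000167 and 0.000547). Of 6 biogenesis regulators, 0 were higher and 1 lower against C, and 2 were higher and 1 lower against TR; the lower one was GABPA, the DNA-binding subunit of an ETS-family factor, at 9.43 ± 1.46 FPKM in NE, 14.2 ± 1.46 FPKM in TR and 13.2 ± 1.5 FPKM in C (SD, n = 4 each).

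Of 13 tested genes of the tricarboxylic acid cycle, 6 were higher against C and 10 against TR, and none was lower in either; SUCLG1, a subunit of succinyl-CoA ligase, was highest in both (0.59 against C and 0.55 against TR). The list of mitochondrial proteostasis and stress split by contrast. Against C, 6 of its 21 tested genes were higher and 10 lower, with CHAC1, a target of the integrated stress response, at 6.48 ± 2.32 FPKM in NE and 30.1 ± 9.10 FPKM in C (SD, n = 4 each). Against TR, 12 were higher and 2 lower.

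In the comparisons between groups no gene of the set passed the test. The design sets induction of miR-139-5p for 96 h against the untreated line at 0 h, and beside it the same treatment of the scrambled line. Doxycycline against untreated in the miR-139 line gave 0 of 70 tested members at an adjusted p under 0.05 by limma on the 4 groups, as it did over all genes (0.0% of 9778), and 0 members at an unadjusted p under 0.05. Blocked by tag (replicate block), limma called 0 members, where 0.0205% of all genes passed, and 2 nuclear members (NDUFA3 and ATP5G1) had an unadjusted p under 0.05. The median log2 change was -0.10 for the mitochondrially encoded genes, 4 of 13 positive, and 0.05 for the nuclear genes, 45 of 57 positive, beside a median of 0.00 and 51.2% positive over all genes. Without the treated NE library of that line 25 of 57 nuclear genes were positive, and without its untreated C library 18. Such fits keep the library of the same tag in the other group, which unbalances the tags. With a whole tag left out 39 of 57 were positive without C, 33 of 58 without NE and 46 of 58 without TR.

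In the scrambled line doxycycline gave a like result: 0 members passed with or without the replicate block, as over all genes (0.0%), with 0 members at an unadjusted p under 0.05 without the block and 2 (COX7B and ATP5G1) with it. The median was -0.04 for the mitochondrially encoded genes, 4 of 13 positive, and 0.10 for the nuclear genes, 56 of 57 positive, beside a median of 0.02 and 57.8% positive over all genes. That count moved with the scale, to 40 of 57 scaled to non-mitochondrial genes. It was 8 of 57 without the treated NE library of the scrambled line and 27 without its untreated TR library. Both of these fits keep the library of the same tag in the other group, which unbalances the tags. With a whole tag left out the count was 56 of 57 without C, 50 of 58 without NE and 55 of 58 without TR. Positive in all 3 tags were 26 of the 57 nuclear genes, where 20.2% of all genes were, and in the miR-139 line 17 of 57, where 16.3% were. The difference between the lines in their response to doxycycline called 0 members (0.0% of all genes; 0.0102% with the replicate block), with medians of 0.01 for the mitochondrial and -0.05 for the nuclear genes. Within NE, TR and C the mitochondrial medians of that difference were 0.14, -0.15 and -0.04, and the nuclear ones -0.04, -0.16 and 0.08.

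The members' levels show how wide the spread within a group was. MT-CO1 had 5637, 10049 and 9384 FPKM in the NE, TR and C libraries of the treated miR-139 line, against 7655, 9798 and 9039 FPKM in that line untreated. In the treated scrambled line it had 4413, 10165 and 9371 FPKM, against 7520, 8920 and 8628 FPKM in that line untreated. The treated NE libraries were the lowest of their groups in both lines, while the TR and C libraries of the treated groups were higher than their untreated partners. ATP5G1 had 151, 93.2 and 121 FPKM (NE, TR, C) in the treated miR-139 line, against 131, 86.3 and 89.7 FPKM in that line untreated. It had 189, 86.8 and 108 FPKM in the treated scrambled line, against 156, 75.5 and 88.9 FPKM in that line untreated, so each treated library was above its partner of the same tag in both lines. Its log2 change was 0.25 ± 0.32 in each line (SE; limma adjusted p = 1.0), in the fit that leaves the spread between tags in the SE. Blocked by tag, limma gave ATP5G1 an unadjusted p under 0.05 in both lines, and it did not pass after adjustment.

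Between the lines, treated libraries gave 0 members (0.0% of all genes; 0.112% with the replicate block, 0 members), with medians of 0.09 for the mitochondrial and -0.07 for the nuclear genes. The tags went apart: the nuclear median was -0.31 in NE (3 of 57 positive), 0.13 in TR (47 of 57) and -0.04 in C (21 of 57), and the mitochondrial one 0.25, -0.01 and 0.00. Untreated libraries gave 0 members too (0.0% of all genes with and without the block), with medians of 0.07 for the mitochondrial and -0.02 for the nuclear genes. Here too the nuclear median differed in sign by tag, -0.26 in NE (10 of 57 positive), 0.28 in TR (53 of 57) and -0.11 in C (9 of 57). All 13 mitochondrially encoded genes had positive changes, the largest 0.12 (MT-ND6), but within NE, TR and C 10, 11 and 9 of 13 did. Without the untreated TR library of the miR-139 line 2 of 13 were positive, and without the untreated NE library of the scrambled line 4. Those fits keep the library of the same tag in the other line. With a whole tag left out 13 of 13 were positive without C, 11 without NE and 10 without TR. The mitochondrial over nuclear ratio averaged 5.84 ± 2.09 in the treated and 6.01 ± 1.29 in the untreated miR-139 line, and 5.65 ± 2.78 in the treated and 5.72 ± 1.80 in the untreated scrambled line (SD, n = 3 each). These means differed by less than the SD within any group.

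Within tags, the doxycycline change of the mitochondrial genes had another sign in NE than in TR and C. In NE the median over the 13 genes was -0.38 for the miR-139 line and -0.47 for the scrambled line, with 1 of 13 positive in each. In TR it was 0.03 and 0.19, with 8 and 12 positive, and in C 0.11 and 0.12, with 10 and 12 positive. MT-ND3 was the gene positive in NE in both lines. The log2 ratio of summed mitochondrial to summed nuclear FPKM changed in NE by -0.40 for the miR-139 line and -0.59 for the scrambled line, and by 0.05 to 0.16 in the 4 other pairs of libraries. Nuclear genes had medians of 0.14 and 0.18 in NE, -0.04 and 0.13 in TR and 0.05 and -0.01 in C for the 2 lines.

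MT-CO1 fell by 0.44 for the miR-139 line and by 0.77 for the scrambled line in NE on the log2 scale, and its 4 changes in TR and C lay between 0.04 and 0.19. For MT-ATP8 the changes were -0.24 and -0.41 in NE, against 0.27 to 0.38 in TR and C. Each of these values compares 1 library with 1. A contrast added after seeing these values, the change in NE minus that in TR and C, called 0 members and 0 of all genes at an adjusted p under 0.05 by limma (0.0%; the lowest adjusted p of any gene was 0.159). At an unadjusted p under 0.05 were 9 of the 13 mitochondrially encoded genes, none of the 57 nuclear genes and 204 of all 9778. The count of 9 ran from 2 (without the treated NE library of the scrambled line) to 11 when 1 library was left out; it was 3 with no filter on low values and 5 with a group term in place of the line. It was 3 without the treated TR or C library of the scrambled line or the untreated NE library of the miR-139 line, 4 without the untreated C library of the miR-139 line or the untreated NE library of the scrambled line, and 5 without the treated C library of the miR-139 line or the untreated C library of the scrambled line. Its median was -0.49 for the mitochondrial and 0.10 for the nuclear genes, and 0.03 over all genes. Without the NE libraries the medians of the doxycycline change were 0.05 for the mitochondrial genes of the miR-139 line (10 of 13 positive) and 0.15 for those of the scrambled line (13 of 13), with 0 members called in each. Without the treated NE library of its own line alone they were 0.19 and 0.24, with 13 of 13 positive in both lines. That fit keeps the untreated NE library, which is also low in these genes, and this raises the medians. The treated NE libraries are the 2 with the highest MT-ND3 to MT-CO1 ratio. That ratio rises as MT-CO1 falls, so it is not a trait apart from the fall of MT-CO1 in them. RNA levels do not measure mitochondrial translation.

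**Figure D5:**
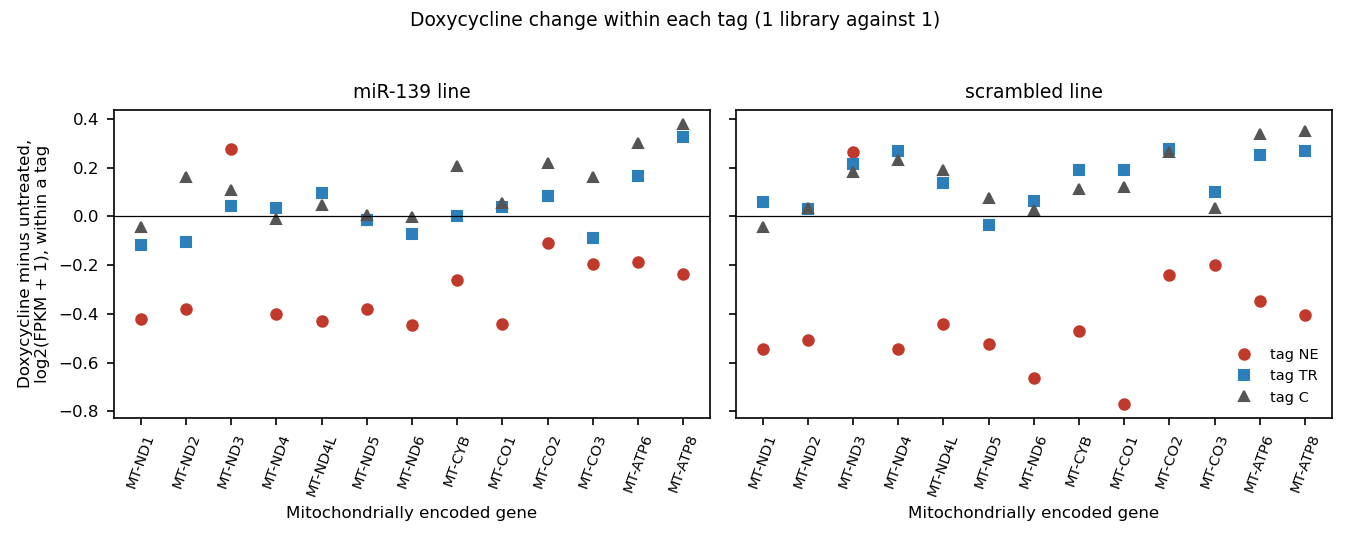
Doxycycline minus untreated on the log2(FPKM + 1) scale for each of the 13 mitochondrially encoded genes, within each tag (1 library against 1), with the miR-139 line on the left and the scrambled line on the right. In both lines 12 of 13 genes lie below 0 in NE, and the TR and C points lie near or above 0.

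The induced miRNA was set against the nuclear subunits by its seed, bases 2 to 8, in capitals (RefSeq, GRCh38.p14, chr11:72615102-72615124, minus strand):
hsa-miR-139-5p: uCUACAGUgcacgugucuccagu
The matching site ACTGTAG was looked for in 3′ UTRs of GENCODE 29 (GRCh38), taking the longest one per gene. It was in 10 of the 57 nuclear genes (17.5%) and in 11.3% of the 7950 tested genes with a 3′ UTR, whose median 3′ UTR was 1322 bases, against 454 for the nuclear genes. The median doxycycline change in the miR-139 line was 0.00 for the 10 genes with the site and 0.06 for the 47 without. In the scrambled line it was 0.09 and 0.10.

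Sites of the member with the most negative and of that with the most positive change among these 10 are given with 9 bases on either side, the site in capitals.
NDUFS1 (chr2:206124124-206124148, minus strand): taatggacaACTGTAGtgcagtgat
UQCR11 (chr19:1597989-1598013, minus strand): gttactgtgACTGTAGctggagtgg
NDUFS1 had a doxycycline change of -0.12 ± 0.17 in the miR-139 line and, for the scrambled one, 0.07 ± 0.17, and UQCR11 one of 0.19 ± 0.26 and 0.16 ± 0.26 (SE; limma adjusted p of 1.0 in each). Blocked by tag, the SE was 0.10 for NDUFS1 and 0.15 for UQCR11 (limma adjusted p of 0.9997 in the miR-139 line and, for both genes in the scrambled one, 0.9976). In the miR-139 line NDUFS1 had changes of -0.21, -0.09 and -0.06 within NE, TR and C, negative in each, and UQCR11 had 0.41, 0.02 and 0.14.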

How the data were processed

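PolyA RNA from CAL62 cells was sequenced in 12 libraries with a strand-keeping kit, per the labels' protocols. The values are FPKM per gene, computed by the authors and deposited as 1 table. The aligners STAR 2.5, TopHat2 2.0.10 and Bowtie 1.0.0, the counters Cufflinks and HTSeq, FastQC 0.11.0, and SAMtools in its versions 1.3.1 and 0.1.19 are listed, per the submitters' processing notes, beside the builds GRCh37 and hg19. Which tool made the table, and whether counting used strand, is not given in the sources used here. Each FPKM is a share of each library, so a change in very abundant genes moves all others. The absolute depth is unknown; relative depth ran from 1.00 to 2.08.

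Libraries were grouped by the line and treatment in their column names. The column tags NE, TR and C could not be matched to the letters of the sample titles. They pair the libraries, since same-tag deviations from the group means correlated at 0.33 to 0.86 in all 18 pairs. The pairing comes from these values and the column names, not from a stated batch.

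Genes with a mean of at least 1 FPKM over the 12 libraries were tested (9778 genes) by limma (version 3.58.1, R 4.3.3) after log2(FPKM + 1), a scale that understates changes of low genes, with a trend in the variance, two-sided, and Benjamini-Hochberg adjustment over all tested genes. The comparisons between groups used the 4 group means, and those between tags used group and tag. Alternatives were the tag as a replicate block, a pseudocount of 0.1, a minimum of 5 FPKM or none, quantile, upper-quartile and non-mitochondrial scaling, no trend, single lines, and each library or tag left out. The test was checked on simulated data. Tables and figures used Python 3.11.15, pandas 2.3.3, numpy 2.4.6 and matplotlib 3.10.9.

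The genes, lists and rules were chosen with earlier results of these data known. Named were all 13 mitochondrial genes, the most abundant nuclear gene of each complex, those with the most positive and most negative change per complex and comparison, the members that passed, paralogs and genes under the minimum. Outside the set, the genes whose levels over the 12 libraries were most like each mean were named. Printed sequences come from RefSeq and GENCODE 29 on GRCh38, another build than that of the table. Most genes on chromosomes 3 to 9 are not analysed here.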

Additional observations from a re-analysis of the deposited data

Results flagged for a closer look

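For 6 mitochondrially encoded genes the doxycycline change within NE was negative in both lines and that within TR and C was positive in all 4 pairs of libraries. Of all tested genes 1.34% had this pattern of signs and 1.56% the opposite one. The change in NE minus that in TR and C, on the log2(FPKM + 1) scale, was -0.55 for MT-ND4L, -0.49 for MT-CYB, -0.70 for MT-CO1, -0.39 for MT-CO2, -0.53 for MT-ATP6 and -0.65 for MT-ATP8. The contrast that tests this difference was added after seeing the data, and limma called none of the 6 (adjusted p of 0.9999 each); it called 0 of all genes, of which 204 had an unadjusted p under 0.05. Each change within a tag compares 1 library with 1.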

How the results depend on the processing

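The 0 calls of the 5 comparisons between groups were the same in every alternative run, the replicate block included, which changed no call of a member; with that block and without the 4 NE libraries the nuclear median was 0.023 for doxycycline on the miR-139 line, and 0.067 for the scrambled one. Leaving out 1 library turned the medians of these comparisons, in fits that kept the libraries of the same tag in the other groups. For doxycycline in the miR-139 line the mitochondrial median ran from -0.21 to 0.19 and the nuclear one from -0.049 to 0.14. In the scrambled line they ran from -0.26 to 0.24 and from -0.090 to 0.27, for the difference between the lines from -0.33 to 0.29 and from -0.20 to 0.16, between treated lines from -0.27 to 0.36 and from -0.17 to 0.12, and between untreated lines from -0.060 to 0.22 and from -0.14 to 0.13. With a whole tag left out, the nuclear median for doxycycline stayed positive, at 0.023 to 0.097 in the miR-139 line and 0.067 to 0.14 in the scrambled line. The mitochondrial median still changed sign, from -0.17 to 0.045 and from -0.16 to 0.15. For NE against C, between 48 and 61 members passed without 1 library, and the nuclear median of 0.39 was 0.18 after quantile normalization and 0.20 scaled to non-mitochondrial genes. For NE against TR, 31 to 55 members passed without 1 library, 30 with no filter on low values, 31 without tag C and 24 in the miR-139 line alone. For TR against C, 0 to 7 passed without 1 library, 2 with no filter, 3 with no variance trend, 8 after quantile normalization, after upper-quartile scaling, with no group term and without NE, and 27 in the miR-139 line alone. Its nuclear median was -0.056 in the scrambled line alone, and its mitochondrial median ran from 0.031 to 0.17 without 1 library. The nuclear median of the added contrast was 0.013 after quantile normalization, 0.011 scaled to non-mitochondrial genes, 0.054 after upper-quartile scaling and -0.054 to 0.27 without 1 library. The causes were not tested. For 29 calls between tags, only the largest changes where many genes passed, 625 values in the alternatives kept their direction and side of the threshold. In 38 the call was lost, and 0 reversed. The other genes named, and all comparisons between groups, are not in these counts. The absolute depth is unknown, so no counting error can be given.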
